A study of Homo sapiens with 2 samples.

Results

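ATF4 and 9 further genes of the integrated stress response were followed in HuH6 cells, a human hepatoblastoma line, with and without an edited PIM3 gene. The genes were ATF4, ATF3, DDIT3, TRIB3, CHAC1, ASNS, PSAT1, PHGDH, SESN2 and DDIT4, and a gene was measured when a row of the expression table carried its symbol alone. Of the 10 genes, 9 had such a row, and 8 of them stood in a single row averaging 1 FPKM (reads scaled to transcript length and library size) or more across the libraries, as did 11253 genes of the whole table. DDIT3 stood only in a row shared with another gene, and SESN2 stood in 2 rows that were both listed at 0.

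The PIM3_KO group held HuH6 cells in which PIM3, a survival-promoting serine/threonine kinase gene, had been targeted with CRISPR/Cas9, and the HuH6_WT group held the unedited line. Both grew untreated in the same serum-containing medium with added L-glutamine, and each group was 1 library of poly(A) RNA, so differences have no replicate check and no test was made. Whether the edited cells were 1 clone or a pool is not given in the sources used here, and effects of PIM3 loss and of any other difference between these cells cannot be told apart. The read steps in the table implied totals of 22.2 M reads for PIM3_KO and 28.3 M reads for HuH6_WT. PIM3 itself measured 14.05 FPKM in PIM3_KO and 34.2 FPKM in HuH6_WT. Of 9 hepatic and hepatoblastoma markers, 7 reached 1 FPKM in both libraries, DLK1 was listed at 0 in both, and all 3 neural markers were listed at 0. The hepatic markers AFP (70.1 FPKM in PIM3_KO, 1.19 FPKM in HuH6_WT), ALB (9.18 FPKM in PIM3_KO, 0.520 FPKM in HuH6_WT) and TTR (2232 FPKM in PIM3_KO, 270.4 FPKM in HuH6_WT) differed widely. APOA1 was also higher in PIM3_KO (12109 FPKM) than in HuH6_WT (5201 FPKM). In the other direction, GPC3 measured 607 FPKM in PIM3_KO and 694 FPKM in HuH6_WT. HNF4A measured 32.7 FPKM in PIM3_KO and 36.1 FPKM in HuH6_WT, and KRT8 4424 FPKM in PIM3_KO and 6269 FPKM in HuH6_WT. KRT18 was near level, at 2598 FPKM in PIM3_KO and 2615 FPKM in HuH6_WT. Of 4 fibroblast markers 3 reached 1 FPKM in both libraries, with a summed level of 10.6 FPKM in PIM3_KO and 10.3 FPKM in HuH6_WT. Among 3 endothelial markers, PECAM1 measured 0.402 FPKM in PIM3_KO and 1.48 FPKM in HuH6_WT. VWF went the other way, at 0.937 FPKM in PIM3_KO and 0.477 FPKM in HuH6_WT, and CDH5 was listed at 0 in both. The part of these differences in the results was not tested.

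The integrated stress response is a way for cells to slow protein synthesis under amino acid shortage, misfolded protein in the endoplasmic reticulum, haem shortage or viral RNA. A family of kinases phosphorylates the alpha subunit of the initiation factor eIF2, which lowers general translation but raises translation of the ATF4 mRNA through upstream open reading frames. The ATF4 protein, a bZIP transcription factor, then binds C/EBP-ATF composite elements and raises genes for amino acid synthesis, uptake and stress signalling. An ATF4 mRNA level therefore does not report the amount of ATF4 protein.

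The composite element was looked for as TGATGNAA on both strands of the RefSeq promoters (GRCh38.p14, 250 bases before to 50 after each start), because it is the sequence through which ATF4 is known to act. All 10 genes had a promoter there, 16 in all with alternative starts, and 3 of these 16 held a match, in ASNS, ATF3 and CHAC1, against 3.62% of 35116 promoters. The capitals mark the match, and each line runs 5′ to 3′ along the gene's strand. The last line shows a match to the AP-1 motif TGANTCA, held by 7.71% of all promoters and, among these genes, by DDIT3. The cyclic AMP response element TGACGTCA, which overlaps none of these matches, was in 1.85% of all promoters and in none of the 16.
ASNS: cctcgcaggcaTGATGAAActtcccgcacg
CHAC1: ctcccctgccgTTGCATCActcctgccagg
ATF3: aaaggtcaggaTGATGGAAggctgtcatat
DDIT3: gcgcgcgcaTGACTCAcccacctcctc
The ASNS match began 68 bases before the more upstream of its 2 starts (chr7:97872458-97872487, minus strand). The CHAC1 match, read as TGATGCAA on the opposite strand, began 209 bases before its start (chr15:40953251-40953280, plus strand), and the ATF3 match 191 bases before the more upstream of its 2 starts (chr1:212565205-212565234, plus strand). The DDIT3 match began 241 bases before the more downstream of its 2 starts (chr12:57520738-57520764, minus strand). Distances are from the RefSeq starts. The gene spans given further on come from GENCODE, whose earliest starts lie further upstream for ASNS, CHAC1 and DDIT3, so these 3 matches fall inside those spans. A match is a description of these letters and was not tested for binding, and the genes that hold the composite element differed in direction, as the values below show.

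ATF3 was the 1 gene of the group with a large difference, and it was lower in PIM3_KO. Of the 8 measured genes, 0 were at least 2-fold higher in PIM3_KO, against 6.89% of all genes, and 1 was at least 2-fold lower, against 4.59% of all genes. Positive log2 ratios were held by 6 of the 8, against 51.0% of all genes. Ratios are of PIM3_KO to HuH6_WT with 1 FPKM added to each value, a scale that shrinks the differences of weakly expressed genes. The median of the 8 was 0.23, and that of all genes 0.014. When both libraries were rescaled to the same total (TPM), 2 of the 8 were positive against 26.1% of all genes, and the medians became -0.24 for the 8 and -0.40 for all genes. On that scale 0 of the 8 were at least 2-fold higher, against 2.87% of all genes, and ATF3 alone was 2-fold lower, against 14.4%. Rescaling to TPM changed the sign of 4 of the 8 ratios (ATF4, ASNS, PHGDH and DDIT4), while the order of the 8 ratios is kept by this rescaling, which moves every abundant gene by nearly the same amount. Intervals given below are exact 95% intervals from estimated reads, approximate because they use 1 transcript length per gene, and they cover counting error only.

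**Figure D1:**
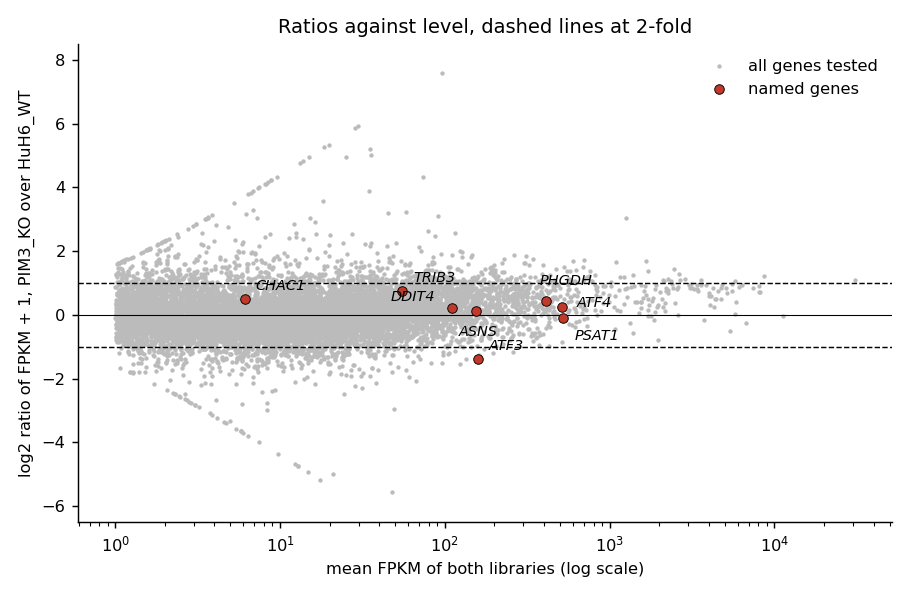
Log2 ratio of FPKM + 1, PIM3_KO over HuH6_WT, against the mean FPKM of both libraries (log axis). Grey points are the 11253 genes tested and red points the 8 measured stress response genes. ATF3 lies below the lower dashed 2-fold line at -1.39, and the other 7 lie between -0.095 and 0.76.

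Among the transcription factors, ATF4 was abundant in both libraries. It measured 559 FPKM in PIM3_KO and 472 FPKM in HuH6_WT, above 98.2% of the genes tested in PIM3_KO and 98.5% in HuH6_WT. The ratio was 1.18 (1.16 to 1.20), a log2 ratio of 0.24 as deposited and -0.22 under TPM. The gene (ENSG00000128272.14) lies on chromosome 22 of GRCh38 from position 39519695 to 39522685, the chromosome that also carries PIM3. Its 4 named pseudogenes reached at most 0.368 FPKM in PIM3_KO and 0.257 FPKM in HuH6_WT.

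ATF3 is a bZIP factor induced early in many stresses, downstream of ATF4 and also of MAP kinases and p53. It measured 87.0 FPKM in PIM3_KO and 229 FPKM in HuH6_WT, about 3544 estimated reads in PIM3_KO and 11891 in HuH6_WT. The PIM3_KO level was 0.380 of the HuH6_WT level (0.366 to 0.394), and 1.71% of all genes tested had a lower ratio. The log2 ratio was -1.39 as deposited, -1.50 after correction for transcript length and -1.85 under TPM, all of them negative. Set against ATF4 within the same library, which no rescaling can alter, ATF3 stood at 15.6% of the ATF4 level in PIM3_KO and 48.5% in HuH6_WT. The gene (ENSG00000162772.16) spans positions 212565334 to 212620777 of chromosome 1, and no other annotated gene overlaps it.

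DDIT3 encodes CHOP, a bZIP partner of ATF4 and of C/EBP factors linked to cell death under prolonged stress. Its row was joined with AC022506.1, a coding gene annotated inside it on the same strand, and this joint locus measured 40.1 FPKM in PIM3_KO and 24.8 FPKM in HuH6_WT. The log2 ratio of the locus was 0.67, or 0.22 under TPM. On the opposite strand DDIT3 (ENSG00000175197.12, chromosome 12 from 57516588 to 57521737) also overlaps MARS, the methionyl-tRNA synthetase gene, which measured 432 FPKM in PIM3_KO and 259 FPKM in HuH6_WT. The libraries were directional, but whether the counting used strand is not given in the sources used here, so the share of DDIT3 in this value is uncertain.

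Of the stress-signalling outputs, TRIB3 had the highest ratio of the 8 genes. TRIB3, a pseudokinase that binds ATF4, CHOP and AKT, measured 69.9 FPKM in PIM3_KO and 40.7 FPKM in HuH6_WT. The ratio was 1.72 (1.63 to 1.80), with a log2 ratio of 0.76 as deposited, 0.74 after length correction and 0.31 under TPM, and 87.7% of all genes had a lower ratio. TRIB3 (ENSG00000101255.10) lies on chromosome 20 from 362835 to 397559. It was thus higher in PIM3_KO under each of these scalings, yet short of 2-fold in all of them.

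CHAC1, a gamma-glutamylcyclotransferase that degrades glutathione, was the least abundant of the measured genes. It had 7.33 FPKM in PIM3_KO and 4.92 FPKM in HuH6_WT, about 222 estimated reads in PIM3_KO and 189 in HuH6_WT. The ratio of 1.49 had the widest counting interval of the 8, 1.23 to 1.83. The log2 ratio was 0.49 as deposited, 0.25 after length correction and 0.096 under TPM. CHAC1 (ENSG00000128965.12) lies on chromosome 15 from 40952962 to 40956519.

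The 3 amino acid synthesis enzymes were abundant, with none past 2-fold. ASNS, which makes asparagine from aspartate and glutamine, measured 162 FPKM in PIM3_KO and 149 FPKM in HuH6_WT, a log2 ratio of 0.12, or -0.34 under TPM. PHGDH, which catalyses the first step of serine synthesis from a glycolytic intermediate, measured 474 FPKM in PIM3_KO and 353 FPKM in HuH6_WT, a log2 ratio of 0.42, or -0.039 under TPM. PSAT1, the aminotransferase of the next step, measured 507 FPKM in PIM3_KO and 541 FPKM in HuH6_WT, a log2 ratio of -0.095, or -0.56 under TPM.

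The 2 neighbouring enzymes of the serine pathway therefore had ratios on either side of 1 in the deposited values, 1.34 (1.32 to 1.37) for PHGDH and 0.936 (0.920 to 0.953) for PSAT1. These intervals do not overlap, but with 1 library per group they say nothing of the spread between cultures. ASNS (ENSG00000070669.16) lies on chromosome 7 from 97852118 to 97872542, PSAT1 (ENSG00000135069.13) on chromosome 9 from 78297143 to 78330093 and PHGDH (ENSG00000092621.12) on chromosome 1 from 119648411 to 119744226. The 4 named pseudogenes of ASNS and the 4 of PSAT1 reached at most 0.761 FPKM in either library.

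DDIT4 and SESN2 encode inhibitors of the growth-promoting kinase complex mTORC1, induced by ATF4 and also by hypoxia or p53. DDIT4 (ENSG00000168209.4, chromosome 10 from 72273920 to 72276036), known as REDD1, measured 119 FPKM in PIM3_KO and 103 FPKM in HuH6_WT. Its log2 ratio was 0.21 as deposited, 0.022 after length correction and -0.25 under TPM, the antisense gene DDIT4-AS1 being at 0.139 FPKM in PIM3_KO and 0.109 FPKM in HuH6_WT. SESN2, a sestrin that senses leucine, was listed at 0 in both of its rows in both libraries. The ribosomal protein genes RPL7A and RPS18, which every cell uses, were likewise listed at 0 in all their rows, so the zeros say nothing of SESN2 expression.

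**Figure D2:**
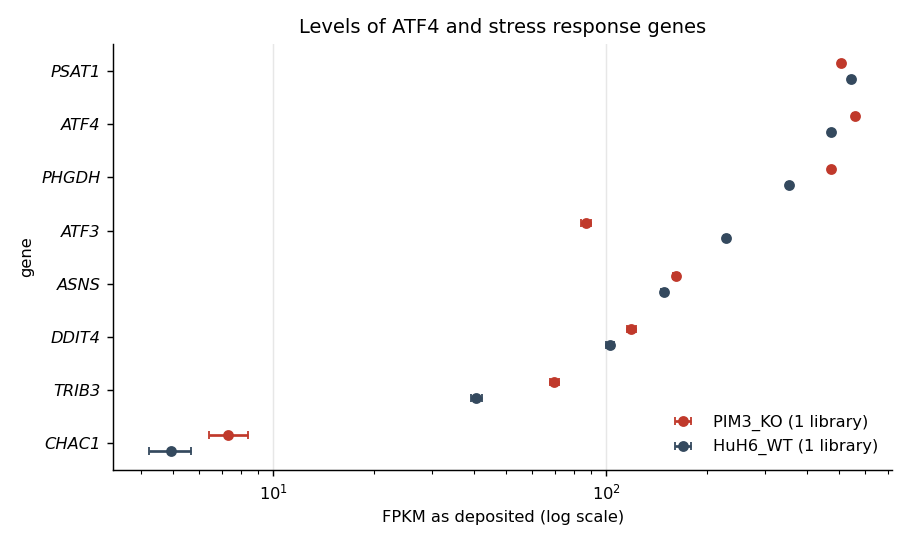
FPKM as deposited (log axis) of the 8 measured genes in PIM3_KO (red, upper point of each pair) and HuH6_WT (dark blue, lower point). Bars are exact 95% counting intervals and no replicate error exists. ATF3 is the gene with a wide gap, at 87.0 FPKM in PIM3_KO against 229 FPKM in HuH6_WT.

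The order of levels, which FPKM allows since it is scaled to length, changed in 2 places. In PIM3_KO it ran ATF4, PSAT1, PHGDH, ASNS, DDIT4, ATF3, TRIB3 and CHAC1. In HuH6_WT it ran PSAT1, ATF4, PHGDH, ATF3, ASNS, DDIT4, TRIB3 and CHAC1. ATF3 was thus the sixth in PIM3_KO and the fourth in HuH6_WT, and PSAT1 and ATF4 exchanged the top ranks. Counting intervals of neighbours in either order did not overlap. Relative to ATF4 in the same library, DDIT4 stood at 21.3% in PIM3_KO and 21.7% in HuH6_WT and ASNS at 29.01% in PIM3_KO and 31.5% in HuH6_WT. PHGDH stood at 84.8% of ATF4 in PIM3_KO and 74.7% in HuH6_WT, and TRIB3 at 12.5% in PIM3_KO and 8.62% in HuH6_WT.

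**Figure D3:**
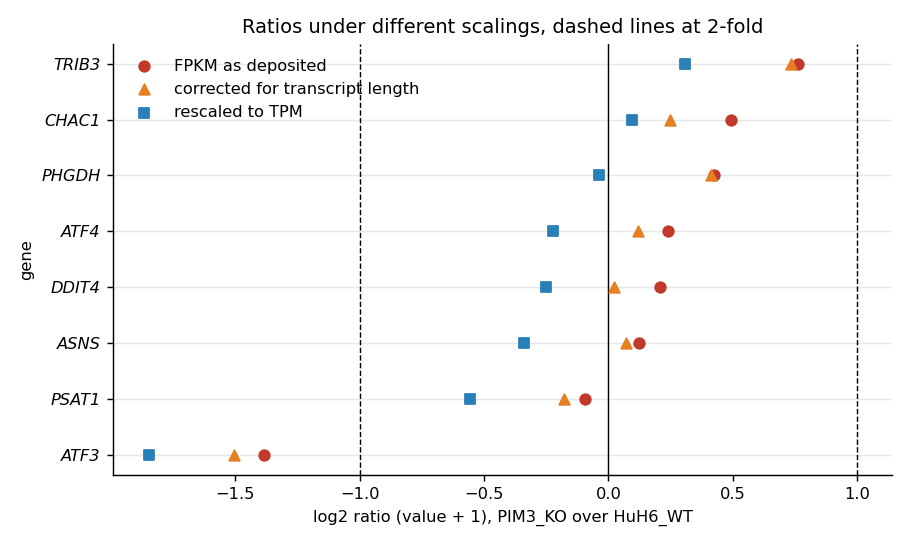
Log2 ratios, PIM3_KO over HuH6_WT, of the 8 genes as deposited (circles), after correction for transcript length (triangles) and rescaled to TPM (squares). ATF4, ASNS, PHGDH and DDIT4 are above 0 as deposited and below 0 under TPM, while TRIB3 and CHAC1 stay above 0 and PSAT1 and ATF3 below.

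Around these genes, 108 others of the response or linked to it were grouped in 10 lists. Of these, 96 had a single row of their own and a mean of at least 1 FPKM. Of the 96, 4 passed 2-fold upward in PIM3_KO, against 6.89% of all genes, and 4 downward, against 4.59%, and the median of their log2 ratios was -0.053. Genes with positive ratios numbered 43, against 51.0% of all genes.

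Upstream of ATF4, the sensors and initiation factors went both ways (13 measured, 0 past 2-fold, log2 ratios from -0.38 to 0.93). Positive were 8, against 51.0% of all genes, or 3 under TPM, against 26.1%. The median was 0.013, or -0.40 under TPM and 0.21 after length correction. The lowest 2 ratios in the deposited values belonged to eIF2alpha kinases. After length correction EIF2B1 was the lowest, at -0.21, followed by EIF2AK1, at -0.18. EIF2AK1, the haem- and mitochondria-linked kinase HRI, measured 63.3 FPKM in PIM3_KO and 83.0 FPKM in HuH6_WT, and EIF2AK2, the RNA-activated kinase PKR, 4.40 FPKM in PIM3_KO and 5.86 FPKM in HuH6_WT. EIF2AK3, the endoplasmic reticulum kinase PERK, was level at 7.86 FPKM in PIM3_KO and 7.78 FPKM in HuH6_WT. EIF2AK4, the amino acid sensor GCN2, measured 62.7 FPKM in PIM3_KO and 49.4 FPKM in HuH6_WT.

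The alpha subunit that these kinases phosphorylate, EIF2S1, measured 82.7 FPKM in PIM3_KO and 82.6 FPKM in HuH6_WT. The beta subunit gene EIF2S2 had the highest ratio of the list, at 218 FPKM in PIM3_KO and 114 FPKM in HuH6_WT, followed by EIF2B4, a subunit of the eIF2 exchange factor, at 95.05 FPKM in PIM3_KO and 63.8 FPKM in HuH6_WT.

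Partner and feedback factors also went both ways (11 measured, 0 past 2-fold, log2 ratios from -0.36 to 0.71, median 0.0067, or -0.45 under TPM). Positive were 6, against 51.0% of all genes, or 1 under TPM, against 26.1%. NUPR1, a stress-induced chromatin protein gene, measured 152 FPKM in PIM3_KO and 92.8 FPKM in HuH6_WT, and ATF5 10.5 FPKM in PIM3_KO and 7.89 FPKM in HuH6_WT. PPP1R15B, the constitutive eIF2alpha phosphatase subunit, measured 16.8 FPKM in PIM3_KO and 21.8 FPKM in HuH6_WT. JDP2, a repressor related to ATF3, measured 18.03 FPKM in PIM3_KO and 22.9 FPKM in HuH6_WT. The stress-induced phosphatase subunit PPP1R15A, known as GADD34, had 113 FPKM in PIM3_KO and 118 FPKM in HuH6_WT.

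Enzymes of serine, glycine and one-carbon metabolism had 5 positive ratios among 7 measured, against 51.0% of all genes (0 past 2-fold, median 0.29). Under TPM the median was -0.17 and 1 was positive, against 26.1% of all genes. The mitochondrial folate enzyme ALDH1L2 measured 2.72 FPKM in PIM3_KO and 1.71 FPKM in HuH6_WT, and the trifunctional MTHFD1 60.2 FPKM in PIM3_KO and 46.6 FPKM in HuH6_WT. In the other direction, mitochondrial MTHFD2 measured 142 FPKM in PIM3_KO and 187 FPKM in HuH6_WT. PSPH, which completes serine synthesis after PHGDH and PSAT1, measured 47.7 FPKM in PIM3_KO and 57.1 FPKM in HuH6_WT.

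Other amino acid enzymes had 1 positive ratio among 6, against 51.0% of all genes (0 past 2-fold, median -0.13). Under TPM the median was -0.59 and 1 was positive, against 26.1% of all genes. The positive one was that of GOT1, the cytosolic aspartate aminotransferase, at 80.7 FPKM in PIM3_KO and 44.0 FPKM in HuH6_WT. The transsulfuration enzymes CTH and CBS were the lowest, CTH at 10.9 FPKM in PIM3_KO and 15.8 FPKM in HuH6_WT and CBS at 8.42 FPKM in PIM3_KO and 11.2 FPKM in HuH6_WT. The next highest, ALDH18A1 of proline synthesis, had a log2 ratio of -0.083. After length correction the median of the list was 0.030, and ALDH18A1 (0.019), GPT2 (0.041) and GLUL (0.081) were above 0 as well.

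Amino acid transporters linked to ATF4 had 3 positive ratios among 9, against 51.0% of all genes (0 past 2-fold, median -0.035). Under TPM the median was -0.50, and 0 were positive, against 26.1% of all genes. On that scale 1 was at least 2-fold lower, SLC7A1 at -1.02, against 14.4% of all genes. The neutral amino acid carrier SLC43A1 measured 53.3 FPKM in PIM3_KO and 39.8 FPKM in HuH6_WT, and the cystine importer SLC7A11 7.14 FPKM in PIM3_KO and 5.28 FPKM in HuH6_WT. The cationic transporter SLC7A1 measured 6.77 FPKM in PIM3_KO and 10.7 FPKM in HuH6_WT, and the glutamine carrier SLC38A2 77.2 FPKM in PIM3_KO and 104 FPKM in HuH6_WT.

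Aminoacyl-tRNA synthetases and the tRNA exporter XPOT spread widely (12 measured, median -0.15). Positive were 4, against 51.0% of all genes. At least 2-fold higher were 0, against 6.89% of all genes, and 1 was at least 2-fold lower, against 4.59%. Under TPM the median was -0.61 and 4 were positive, against 26.1% of all genes. On that scale 3 were at least 2-fold lower, against 14.4% of all genes. IARS, the isoleucyl-tRNA synthetase gene, measured 59.8 FPKM in PIM3_KO and 136 FPKM in HuH6_WT. Its log2 ratio was -1.17, or -0.96 after length correction, short of 2-fold. XPOT measured 32.3 FPKM in PIM3_KO and 57.1 FPKM in HuH6_WT. MARS, with the values given above, and EPRS, at 146 FPKM in PIM3_KO and 97.5 FPKM in HuH6_WT, had the highest ratios.

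Other outputs of the response had 3 positive ratios among 12, against 51.0% of all genes (median -0.13, or -0.59 under TPM). Of these 12, 1 was at least 2-fold higher, against 6.89% of all genes, and 1 at least 2-fold lower, against 4.59%. Under TPM 0 were at least 2-fold higher, against 2.87%, and 1 lower, against 14.4%. EIF4EBP1, a repressor of cap-dependent translation, measured 267 FPKM in PIM3_KO and 107 FPKM in HuH6_WT. Its log2 ratio was 1.31 as deposited, 0.91 after length correction and 0.85 under TPM. KLHL24 measured 1.71 FPKM in PIM3_KO and 5.61 FPKM in HuH6_WT, a log2 ratio of -1.29. The angiogenic factor VEGFA measured 47.2 FPKM in PIM3_KO and 64.9 FPKM in HuH6_WT, and BCL2L11, which encodes the death protein BIM, 11.2 FPKM in PIM3_KO and 9.69 FPKM in HuH6_WT. GDF15, a secreted stress cytokine, was among the most abundant at 1684 FPKM in PIM3_KO and 1740 FPKM in HuH6_WT.

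Genes that regulate mTORC1, beside DDIT4, had negative ratios in all 6 measured cases, as deposited and under TPM. Of all genes, 51.0% had positive ones, or 26.1% under TPM. The median of the 6 was -0.49, or -0.88 under TPM and -0.38 after length correction. With that correction SESN3 was above 0, at 0.12, and TSC2 was at -0.10. At least 2-fold lower was 1 of them, against 4.59% of all genes, and 2 under TPM, against 14.4%. The Rag GTPase RRAGD was the one past 2-fold in the deposited values, with a log2 ratio of -2.81. On the TPM scale TSC1 also passed 2-fold, at -1.04. TSC1, a subunit of the complex through which DDIT4 acts, measured 9.05 FPKM in PIM3_KO and 14.3 FPKM in HuH6_WT, and TSC2 16.5 FPKM in PIM3_KO and 21.2 FPKM in HuH6_WT. The sestrin SESN3 measured 5.91 FPKM in PIM3_KO and 6.56 FPKM in HuH6_WT, and the p53-linked SESN1 21.3 FPKM in PIM3_KO and 31.1 FPKM in HuH6_WT. The other direction was seen in 2 joined loci, the one with the arginine sensor CASTOR1 at 22.3 FPKM in PIM3_KO and 16.7 FPKM in HuH6_WT and the one with RRAGC at 81.0 FPKM in PIM3_KO and 72.1 FPKM in HuH6_WT. DDIT4, at a log2 ratio of 0.21, had the opposite sign to these 6 in the deposited values and the same sign under TPM. The median of all genes is itself -0.40 under TPM. DDIT4 lay above 59.7% of all genes on that scale and above 62.6% as deposited.

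The IRE1 and ATF6 arms of the unfolded protein response, which run beside the PERK-ATF4 arm, had 12 positive ratios among 14, against 51.0% of all genes, and 2 at least 2-fold higher, against 6.89% (0 lower, median 0.35). Under TPM the median was -0.098, with 6 positive, against 26.1% of all genes, and 0 past 2-fold. The chaperone gene CALR had a log2 ratio of 1.11, or 0.96 after length correction. MANF, a secreted protein of the reticulum, measured 140 FPKM in PIM3_KO and 69.3 FPKM in HuH6_WT. Its log2 ratio was 1.00, or 0.64 after length correction, so neither gene passed 2-fold after that correction. EDEM1, of protein disposal, measured 14.9 FPKM in PIM3_KO and 21.9 FPKM in HuH6_WT, and its partner in that route SEL1L 5.29 FPKM in PIM3_KO and 5.64 FPKM in HuH6_WT. The master chaperone HSPA5 lay near equality at 224 FPKM in PIM3_KO and 208 FPKM in HuH6_WT.

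Paralogues and bZIP partners of the group held the highest ratio of the 10 lists. Of 6 measured, 1 was positive, against 51.0% of all genes, and the median was -0.14, or -0.59 under TPM. At least 2-fold higher was 1, against 6.89% of all genes, and at least 2-fold lower 1, against 4.59%. Under TPM 1 was at least 2-fold higher, against 2.87%, and 2 lower, against 14.4%. BATF3, a bZIP factor that like ATF3 pairs with JUN, had a log2 ratio of 3.90. JUN measured 56.9 FPKM in PIM3_KO and 139 FPKM in HuH6_WT, and FOS 252 FPKM in PIM3_KO and 491 FPKM in HuH6_WT. The log2 ratios of JUN and FOS, -1.27 and -0.96, were the lowest 2 of this list. That of FOS passed 2-fold under TPM, at -1.42, and after length correction, at -1.05. The CHAC1 paralogue CHAC2 was level, at 5.07 FPKM in PIM3_KO and 5.28 FPKM in HuH6_WT, while TRIB1 measured 57.1 FPKM in PIM3_KO and 63.3 FPKM in HuH6_WT.

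**Figure D4:**
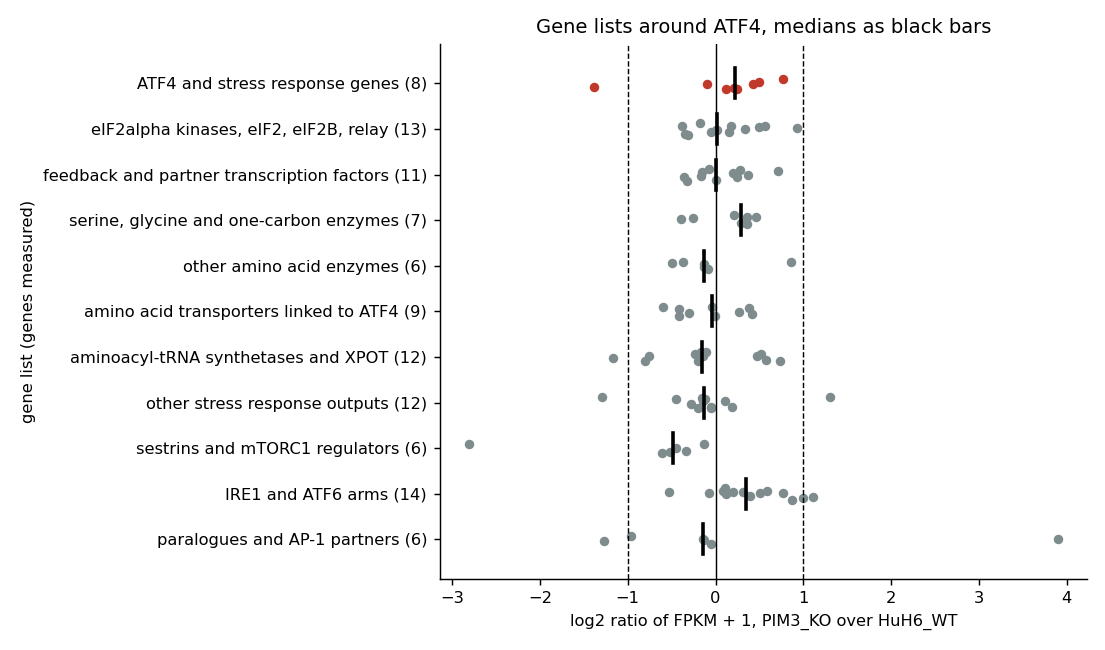
Log2 ratios of FPKM + 1, PIM3_KO over HuH6_WT, for the 8 measured stress response genes (red) and the 10 lists around them (grey), 1 point per gene, with the number measured in brackets. Black bars are medians, which run from -0.49 for sestrins and mTORC1 regulators to 0.35 for the IRE1 and ATF6 arms, and dashed lines mark 2-fold.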

How the data were processed

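Poly(A) RNA was sequenced as directional single-end 75 bp reads, per the labels' protocols. Tools named in the submitters' processing notes are Cufflinks 2.2.1, STAR 2.7.3a and bcl2fastq 2.18.0.12, with GRCh38. The authors deposited FPKM values, per the file headers, in a table of 62571 rows. Its annotation release is not given in the sources used here, and neither is its strand setting.

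The 53139 symbols found in a single row of their own were kept. This leaves out 1736 joined rows and also the rows of symbols found in several rows. Ratios were log2(FPKM + 1), PIM3_KO over HuH6_WT, for genes averaging 1 FPKM or more. With 1 library per group no test was run. Reads were estimated from the FPKM worth of 1 read in single-exon genes of 600 to 5000 bp (length less 200 bp), where 96.6% of PIM3_KO and 96.4% of HuH6_WT values under 20 reads lay within 0.05 of a whole number. Lengths and positions came from GENCODE release 29 (GRCh38), promoters from RefSeq (GRCh38.p14). Ratio intervals are exact (Clopper-Pearson) and level intervals Poisson. The code was tested on simulated data. Python 3.11.15, pandas 2.3.3, scipy 1.17.1 and statsmodels 0.14.6 (lowess, fraction 0.3) were used.

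The genes and lists were chosen with earlier results of these data known. Named were all members, PIM3 and the 2 highest and 2 lowest ratios of each list. Chosen after their values were seen were EIF2AK3, EIF2AK4, EIF2S1, EIF2B1, PPP1R15A, GPT2, GLUL, GDF15, SESN1, HSPA5, TRIB1, VLDLR, TRIB2, FGF21, DDIT4-AS1, RPL7A, RPS18, AFP, ALB, TTR, APOA1, GPC3, HNF4A, KRT8, KRT18, DLK1, PECAM1, VWF, CDH5 and the joined loci. Alternatives tried were pseudocounts of 0.1 and 5, no filter, a mean of at least 5 FPKM, TPM, median centring, a length correction and summed rows. Chosen after seeing the data were counting joined loci and leaving out ATF3.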

Additional observations from a re-analysis of the deposited data

How the results depend on the processing

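Of the 8 genes, none changed sign under pseudocounts of 0.1 or 5, no filter, a mean of at least 5 FPKM, median centring, the length correction, summed rows or joined loci, and 4 did under TPM (ATF4, ASNS, PHGDH and DDIT4). ATF3 stayed at least 2-fold lower in each, between -1.85 and -1.35, and no other gene passed 2-fold. The median of the 8 was 0.095 after length correction and -0.24 under TPM. Over all genes tested, TPM gave 323 at least 2-fold higher and 1622 lower, against 775 and 516 in the main setting. A pseudocount of 5 gave 399 higher and 172 lower, and a pseudocount of 0.1 gave 1031 higher and 812 lower. TPM moved the median of all genes by -0.41. Of the 10 list medians, 4 changed sign under TPM, 2 with centring and 1 with length correction, that of the other amino acid enzymes. No paired analysis was possible because each group has 1 library. Depth limits CHAC1 most, at about 222 reads in PIM3_KO and 189 in HuH6_WT.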

Other observations

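Some genes of the lists fell outside the counts because of their level or their rows. VLDLR, a lipoprotein receptor, measured 0.729 FPKM in PIM3_KO and 0.0231 FPKM in HuH6_WT, and the TRIB3 paralogue TRIB2 0.901 FPKM in PIM3_KO and 0.109 FPKM in HuH6_WT, both under a mean of 1 FPKM. FGF21, a hormone induced by the stress response, measured 1.10 FPKM in PIM3_KO and 0.864 FPKM in HuH6_WT. The locus joining PYCR1, of proline synthesis, with MYADML2 measured 117 FPKM in PIM3_KO and 121 FPKM in HuH6_WT. The locus joining OMA1, the mitochondrial protease upstream of DELE1, with DAB1 measured 25.01 FPKM in PIM3_KO and 25.3 FPKM in HuH6_WT.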
